A study of Mus musculus with 6 samples.

Results

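Alternative 5′ splice site (A5SS) events are those in which 1 exon can end at either of 2 neighbouring 5′ splice sites. All 2062 A5SS events of the deposited splicing table, of 40961 events of 5 types, were taken, and each was described by the distance between its 2 sites and by whether that distance keeps the reading frame. They came from 1630 genes and formed 1990 distinct pairs of splice sites, since some pairs were listed with up to 4 partner exons. The upstream site gives the short form of the exon, the downstream site gives the long form, and the stretch between them is called the extension here. Percent spliced in (PSI), given as a fraction, is the share of the long form once junction counts are corrected for the effective lengths of both forms. The control group was 3 hippocampus libraries labelled wild type, and the other group was 3 labelled hnRNP DL KD in one field and hnRNP DL-/- in another. Per the study's methods, all were from male C57BL/6 J mice injected at 8 weeks of age in CA1 with adeno-associated virus, carrying control shRNA or, driven by H1 promoters, 4 tandem shRNAs against L-DL, the long isoform of hnRNP DL. What share of the cells in the dissected tissue took up the virus was not measured here.

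A 5′ splice site marks the start of an intron. It is first bound by U1 snRNP, whose RNA pairs with the last letters of the exon and the first letters of the intron, and is then handed over to U6 and U5 snRNP before the first step of splicing. Most sites begin with GT, and a small class begins with GC. When a usable site lies close to another, LUC7-like proteins, TIA1, SR proteins and hnRNP proteins that bind nearby influence which of them is chosen. A distance that is a multiple of 3 adds or removes whole codons, whereas any other distance shifts the frame and often leads to nonsense-mediated decay (NMD), in which a transcript with an early stop codon is degraded.

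The letters around the site pairs that the results turn on are given here, read from GENCODE vM21 transcripts (GRCm38). Lower case marks the last letters of the short exon, and capitals mark the start of the extension, so that the upstream splice site is the boundary between the cases. The first 5 are the pairs that passed the adjusted test, with extensions at chr15:74584418-74584432 (plus strand, Adgrb1), chr17:26253092-26254388 (plus strand, Luc7l), chr9:58643685-58643802 (plus strand, Nptn), chr19:45796279-45797090 (minus strand, Kcnip2) and chr10:127184392-127184662 (minus strand, Arhgef25).
Adgrb1: tgtagatcagGTGAGCGCCTGACAG
Luc7l: gctcgggacgGTGAGTCTGAGCGGTGGCCC
Nptn: cgtcctcaggGTACGGAGCCACCTTGCCCC
Kcnip2: gtcagtgaaaGCAAGTGTCTCACCTATGCT
Arhgef25: agagctggagGTGAGGTCCCCAGGACACTG
The upstream site of Kcnip2 began with GC and the other 4 with GT. The next shows the pair whose p came next, at chr14:79768497-79768787 (minus strand, Pcdh8).
Pcdh8: caagaaggagGTGCGCAAAGGGGGGGCCCT
The last 3 are sites only 4 nt apart, the most frequent spacing, and are given with the whole extension, at chr12:80945669-80945672 (plus strand, Srsf5), chr14:65971853-65971856 (plus strand, Clu) and chr11:115534552-115534555 (minus strand, Sumo2).
Srsf5: accctgtccgGTAG
Clu: gagctccaagGTAG
Sumo2: attgtgaacgGCAG

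The distance between the 2 sites ranged from 2 to 4781 nt, with a median of 53 nt. The most frequent spacing was 4 nt, with 85 pairs, followed by 9 nt with 63, 6 nt with 49, 12 nt with 47 and 15 nt with 40. Of the 4 nt pairs, 25 of 85 extensions read GTAG, 12 read GTGG and 9 read GTGA, and 17 began with GC.

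Not every pair was a choice between 2 ends of 1 exon. In 353 of the 1990 pairs the annotation placed another exon inside the extension that ended at the downstream site. The junction of the long form is then also the junction by which that inner exon is spliced to the next one, and the junction of the short form is the one that skips it. For 279 events, forming 271 of all pairs, the table also listed a skipped exon event on the same junctions, and its skipping counts were identical to the short-form counts in all 6 libraries. Among the 164 tested pairs of this kind, 89 had their long form annotated only in retained-intron transcripts. This division was made after values had been seen, and results are given with and without these pairs.

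Reading frame was kept more often in coding sequence than elsewhere. Over all pairs, 824 of 1990 distances were multiples of 3, which was 41.4% (95% Wilson interval 39.3 to 43.6). Without the pairs that held an exon, the share was 54.97% of 986 pairs (51.9 to 58.0) with a coding extension, against 25.7% of 191 pairs (19.98 to 32.3) in 5′UTRs and 26.2% of 210 pairs (20.7 to 32.5) in noncoding transcripts. It was 28.0% of 207 pairs (22.3 to 34.5) with a partly coding extension and 28.2% of 39 pairs (16.5 to 43.8) in 3′UTRs. An extension counted as coding only if the coding sequence of a long-form transcript spanned it. Extensions in which that sequence ends are thus counted outside this class, so the definition bears on the contrast. The intervals cover counting error over pairs only, since pairs of 1 gene share transcripts. In coding extensions 54 pairs lay 9 nt apart, 45 lay 6 nt apart and 40 lay 12 nt apart, against 48 pairs at 4 nt and 24 at 5 nt. Outside fully coding sequence the 4 nt pairs stood alone, with 37 pairs, and no other spacing up to 60 nt reached more than 11.

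**Figure D1:**
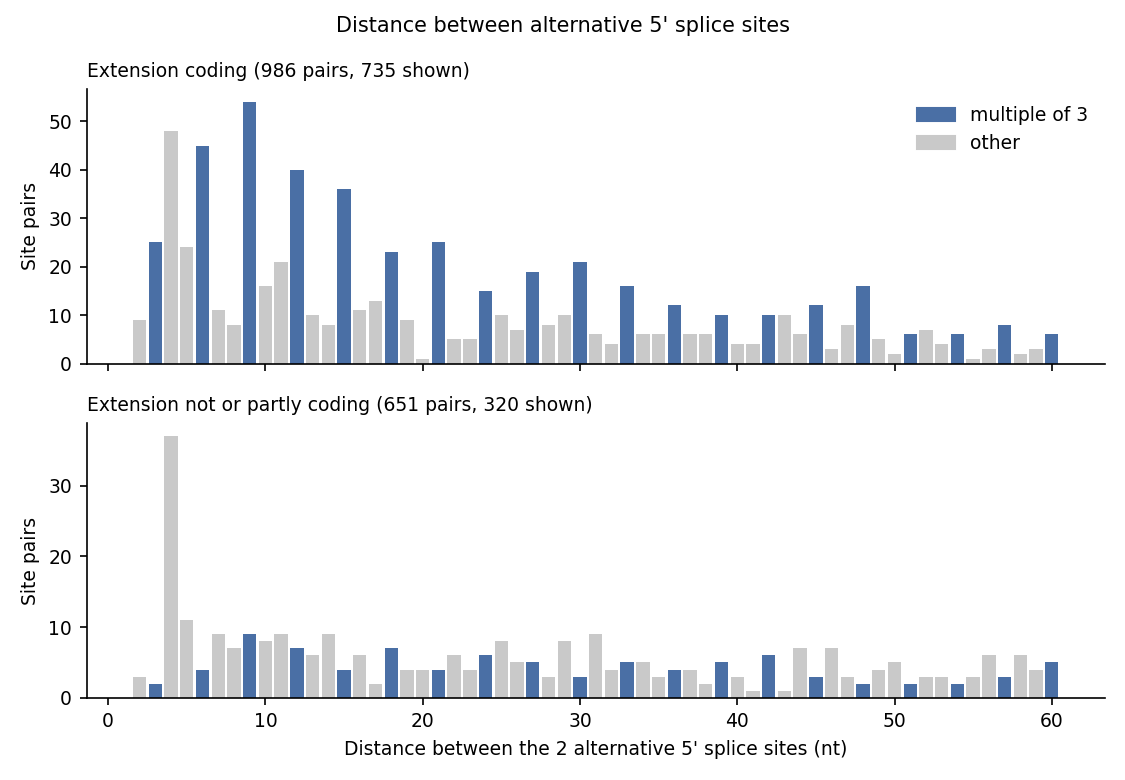
Number of site pairs (y) at each distance from 2 to 60 nt (x), for pairs with no exon inside the extension; upper panel 986 pairs with a coding extension (735 within the range), lower panel 651 other pairs (320 within the range), with multiples of 3 in blue and other distances in grey. In coding sequence most multiples of 3 stand above their neighbours, the 4 nt bar being the exception with 48 pairs, and in other sequence only the 4 nt bar, with 37 pairs, stands out.

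An extension can also carry a stop codon in the frame of the upstream exon. Where that frame was known and no exon lay inside, 101 of 562 extensions (17.97%, Wilson interval 15.02 to 21.4) that kept the frame held such a stop, against 220 of 464 (47.4%, 42.9 to 52.0) that did not keep it. The second class was longer, with a median of 42 nt against 30 nt, so the shares are not matched for length.

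Of the 2062 events, 1201 had enough counts to be tested, meaning a mean of at least 20 junction counts per library and at least 1 of each form. These formed 1173 pairs in 1008 genes. Another 475 events had fewer than 20 counts, and 386 had enough counts but almost none of 1 form: their PSI in the controls was above 0.9 in 300 and below 0.1 in 86. The tested events had a median of 80.5 counts per library. The junction counts of all A5SS events summed to between 253103 and 296840 per library, and the gene counts to between 16052529 and 17913064.

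In the control libraries the median PSI of the tested pairs was 0.480. The downstream site was the rare one, with PSI below 0.1, in 295 pairs (25.1%), the upstream site was the rare one in 291 pairs (24.8%), and the other 587 pairs used both. Pairs that held an exon had a median of 0.923. Among the other pairs, mean control PSI was 0.456 where the distance kept the frame (470 pairs) and 0.458 where it did not (539 pairs). Stops were sought only where a protein-coding transcript uses the upstream site within its coding sequence. Pairs whose short form is not coding therefore drop out of the classes that follow, and PSI differed between those classes. With the frame kept and no stop, mean PSI was 0.487 ± 0.0023 (SD, n = 3 libraries, 321 pairs), and with the frame kept but a stop gained it was 0.135 ± 0.0096 (71 pairs). Where the frame shifted, it was 0.250 ± 0.0018 without a stop in the extension (152 pairs) and 0.159 ± 0.0074 with one (141 pairs). The SD here is between library means over the same pairs and does not measure the spread between pairs.

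**Figure D2:**
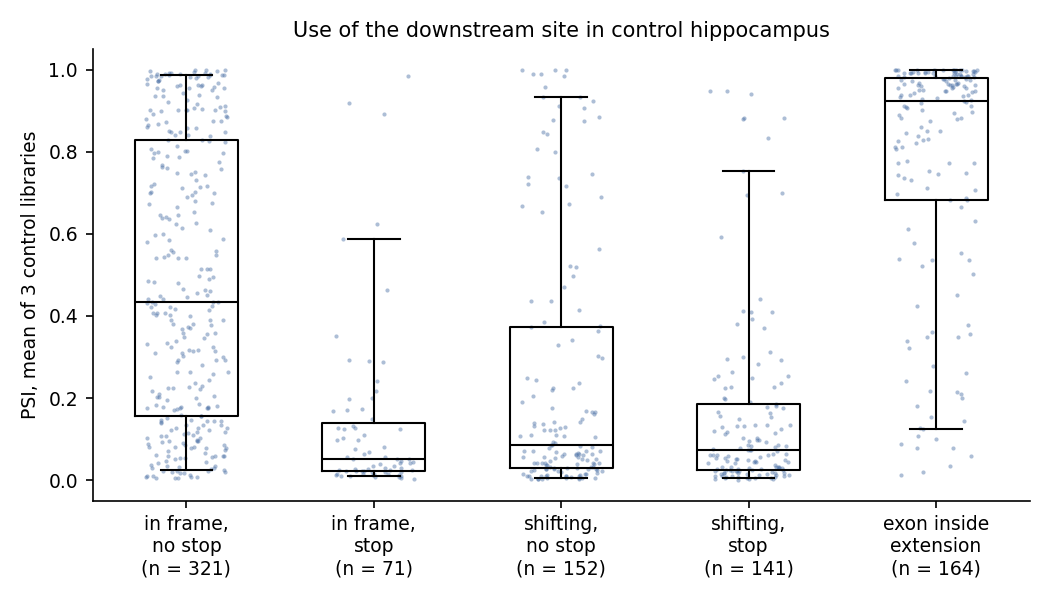
PSI as the mean of the 3 control libraries (y), by what the extension does to the frame. Pairs without an inner exon are shown only where a protein-coding transcript uses the upstream site within its coding sequence. Points are tested pairs, boxes give the quartiles and median, and whiskers span the 5th to 95th percentile. The pairs that keep the frame and gain no stop spread over the whole range around a median of 0.434. The other classes shown without an inner exon have medians between 0.051 and 0.087, and pairs with an exon inside the extension have a median of 0.923. Over all tested pairs without an inner exon, the medians were 0.405 where the distance kept the frame and 0.364 where it did not.

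Control PSI also differed by transcript class, with the SD again between library means over the same pairs. In 197 tested pairs the long form occurred in NMD transcripts and the short form in protein-coding ones, and the share of the long form in the controls was 0.149 ± 0.0051 (SD, n = 3). In 102 pairs with the opposite arrangement the share of the short, NMD form was 0.140 ± 0.0043. In 512 pairs with both forms in protein-coding transcripts the long form had 0.517 ± 0.00036, and 70.9% of these distances were multiples of 3, against 22.8% and 9.80% in the NMD classes. Since the annotation of NMD follows from the frame, these classes are not independent of the ones by frame.

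The upstream site began with GT in 1566 of 1634 readable pairs without an inner exon (95.8%) and with GC in 65 (3.98%). Mean control PSI was 0.452 ± 0.00058 (SD, n = 3) in the 968 tested GT pairs and 0.568 ± 0.025 in the 39 tested GC pairs. The spread over pairs was far wider than this SD between libraries. Quartiles of control PSI were 0.077 and 0.857 for GT pairs and 0.227 and 0.936 for GC pairs. Each site was also scored by how many of 9 letters it shares with CAG at the exon end followed by GTAAGT in the intron, the letters that pair fully with U1. Pairs whose upstream site matched 4 letters or fewer had a median control PSI of 0.892 (59 pairs), and those matching 7 to 9 letters had 0.321 (196 pairs). The rank correlation between this match and PSI was −0.15 over 950 pairs, and that of the downstream minus the upstream match was 0.17 over 357 pairs. These correlations run across pairs of the same libraries and are weak. The intron letters of the downstream site were read only where another transcript covers them, in 544 of 1637 pairs, since no genome sequence was used.

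The question put to these data was whether the choice between the sites differed in the libraries labelled L-DL KD. Before that, Hnrnpdl itself was examined: it had 176, 184 and 171 CPM (counts scaled to library size) in the controls and 217, 150 and 173 CPM in the other libraries, a log2 difference of 0.03 (SE 0.12, adjusted p = 0.898, edgeR quasi-likelihood test with Benjamini-Hochberg adjustment). The gene was not lower in the libraries labelled KD, gene counts do not separate the long isoform, and every direction below rests on the labels. Markers of the hippocampus were present in all libraries, and the summed level of Wfs1, Prox1 and Slc17a7 was 1242 to 1389 CPM in the controls and 878 to 1107 CPM in the others. Cell type markers moved too: all 6 microglial genes were higher (summed 734 to 936 against 1619 to 1986 CPM), and 7 of 8 neuronal genes were lower (9070 to 9577 against 5205 to 6298 CPM), whereas the 3 choroid plexus genes ranged from 408 to 4464 CPM in the controls and from 26.0 to 4996 CPM in the others. The part of these shifts in the results below was not tested. In bulk tissue, fewer cells of a type and less RNA per cell cannot be told apart.

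The choice of site changed in few events. Of 1201 tested events, 5 passed an adjusted p of 0.05, in Kcnip2, Arhgef25, Adgrb1, Luc7l and Nptn, where 48 of 18829 events of all types did (0.255%). At an unadjusted p under 0.001, 9 A5SS events passed (all types 0.977%), at a p under 0.01 38 did (all types 4.25%), and at a p under 0.05 125 did, or 10.4% (all types 13.3%). Of these 125, 50 rose in PSI and 75 fell, where all types had 4.96% rising and 8.3% falling. The 3 libraries of each group lay apart without overlap in 208 events (17.3%, all types 18.4%), of which 97 were higher (all types 7.6%) and 111 lower (all types 10.8%). Skipped exons had 17.9% of events at p under 0.05, retained introns 9.24%, alternative 3′ splice sites 7% and mutually exclusive exons 4.43%. The A5SS shares lay near those of all types.

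The 5 calls included pairs with an inner exon. In Kcnip2 and Arhgef25 the extension held an annotated exon, and 3 calls remained without such pairs. At p under 0.001 the pairs with an inner exon were 4 of 9, adding Aldh6a1 and Hdac3, and at p under 0.05 they were 37 of 124. Put as shares, 22.6% of the 164 tested pairs with an inner exon, and 8.62% of the 1009 without, were at p under 0.05, which is a description and was not tested. Of those 37 pairs 27 fell in PSI, and of the 87 others 47 fell and 40 rose.

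**Figure D3:**
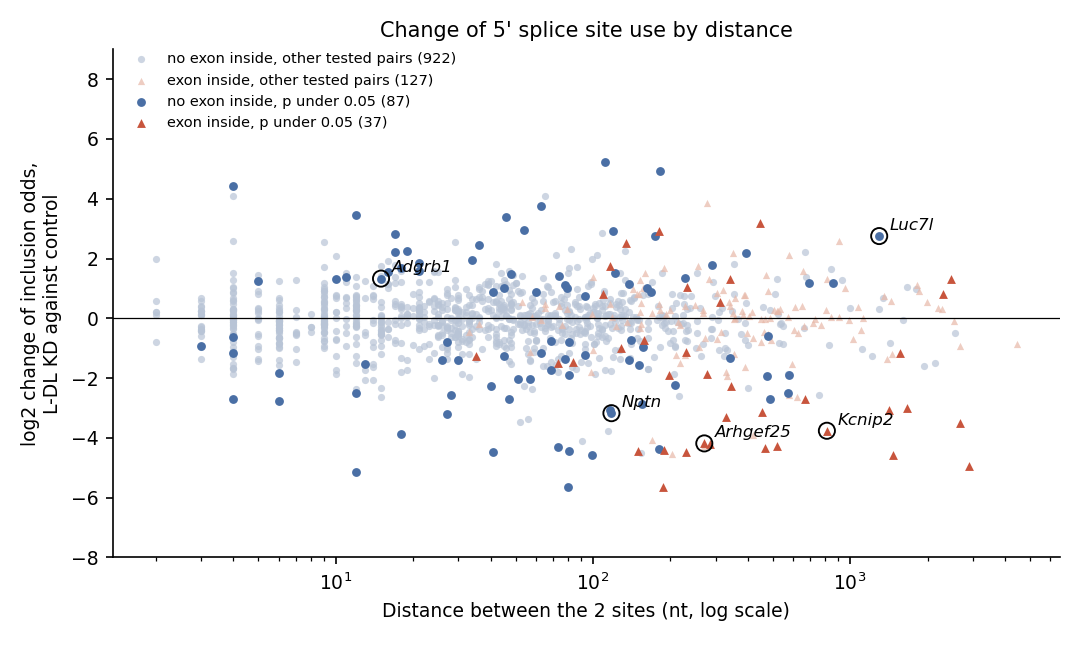
Log2 change of the inclusion odds (long against short form) between the groups (y) against the distance between the 2 sites (x, log scale) for 1173 tested pairs, with triangles for pairs that hold an exon; dark symbols have an unadjusted p under 0.05 and circled, named pairs an adjusted p under 0.05. Most dark triangles lie below 0, among them Kcnip2 and Arhgef25, and the dark circles lie on both sides.

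Luc7l encodes a LUC7-like protein that associates with U1 snRNP, and its first exon has sites 1297 nt apart. The upstream site is used in protein-coding transcripts and the downstream one in a retained-intron transcript. Long-form counts were 21, 41 and 27 in the controls and 56, 67 and 54 in the L-DL KD libraries, while short-form counts were 85, 86 and 121 and then 25, 29 and 33. PSI was 0.110, 0.192 and 0.1004 in the controls and 0.528, 0.536 and 0.450 in the L-DL KD libraries. The groups lay far apart, and the log2 change of the odds was 2.75 (SE 0.47, adjusted p = 0.0377, edgeR). The gene's own level did not pass the test (log2 change −0.04, SE 0.09, adjusted p = 0.792, edgeR).

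Adgrb1 encodes BAI1, an adhesion G protein-coupled receptor found at synapses. Its 2 sites lie 15 nt apart, so the frame is kept, and read in the frame of the protein-coding transcript the extension holds no stop. In the annotation, however, the longer exon occurs only in an NMD transcript, in its 3′UTR, and in a processed transcript. PSI was 0.215, 0.201 and 0.210 in the controls and 0.383, 0.387 and 0.426 in the L-DL KD libraries, at a mean of 723 counts per library. The spread within each group was narrow, and the log2 change of the odds was 1.33 (SE 0.23, adjusted p = 0.0377, edgeR). The gene itself was lower, by a log2 change of −0.56 (SE 0.07, adjusted p = 0.000802, edgeR). Long-form counts were 202, 186 and 172 in the controls and 262, 267 and 241 in the others, and short-form counts were 676, 674 and 591 and then 386, 386 and 297, so the long form was more and the short form less abundant.

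Nptn encodes neuroplastin, an immunoglobulin cell adhesion molecule of synapses. Its upstream site, 118 nt before the usual one, is annotated only in an NMD transcript. It was used in 2, 2 and 1 of the reads in the controls and in 10, 12 and 10 in the L-DL KD libraries, beside 991, 1017 and 1035 and then 827, 623 and 600 reads of the long form. PSI therefore moved only from 0.997 ± 0.0011 to 0.972 ± 0.0061 (SD, n = 3), although the log2 change of the odds was −3.17 (SE 0.57, adjusted p = 0.0497, edgeR). The gene's level was also lower, with a log2 change of −1.02 (adjusted p = 0.000309, edgeR).

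Kcnip2 encodes KChIP2, a calcium-binding auxiliary subunit of Kv4 potassium channels. PSI was 0.893, 0.968 and 0.951 in the controls and 0.558, 0.547 and 0.457 in the L-DL KD libraries. Short-form counts went from 14, 4 and 6 to 74, 73 and 72, and the log2 change of the odds was −3.76 (SE 0.47, adjusted p = 0.00977, edgeR). The skipped exon event on the same junctions had −3.79, since it shares the short-form counts, and the 2 are 1 observation. The gene's level did not pass the test (adjusted p = 0.211, edgeR).

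Arhgef25, which encodes a guanine nucleotide exchange factor for small GTPases, also had few short-form counts in the controls. The short form had 1, 3 and 2 counts there and 51, 28 and 32 in the L-DL KD libraries, beside 489 to 600 and 503 to 543 counts of the long form. The PSI was 0.996, 0.990 and 0.992, then 0.835, 0.8998 and 0.895, and the log2 change was −4.19 (SE 0.52, adjusted p = 0.00977, edgeR). The matching skipped exon event had −4.24. The size of the PSI change rests on the correction for effective lengths: uncorrected, it was −0.062 in place of −0.12 in Arhgef25 and −0.014 in place of −0.025 in Nptn. In Kcnip2 it was −0.28 in place of −0.42, in Luc7l 0.44 in place of 0.37 and in Adgrb1 0.20 in place of 0.19.

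Each of the 5 calls kept its direction with any 1 library left out, but many lost significance. Kcnip2 kept an adjusted p under 0.05 in 5 of 6 such fits and Arhgef25 in 4, Adgrb1 kept it only without L-DL KD replicate 1 (0.0444), and Luc7l (0.0636 to 0.211) and Nptn (0.0543 to 0.222) kept it in none. DESeq2 and limma called all 5. The splicing table gives no replicate numbers, so its libraries are numbered here by their order.

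**Figure D4:**
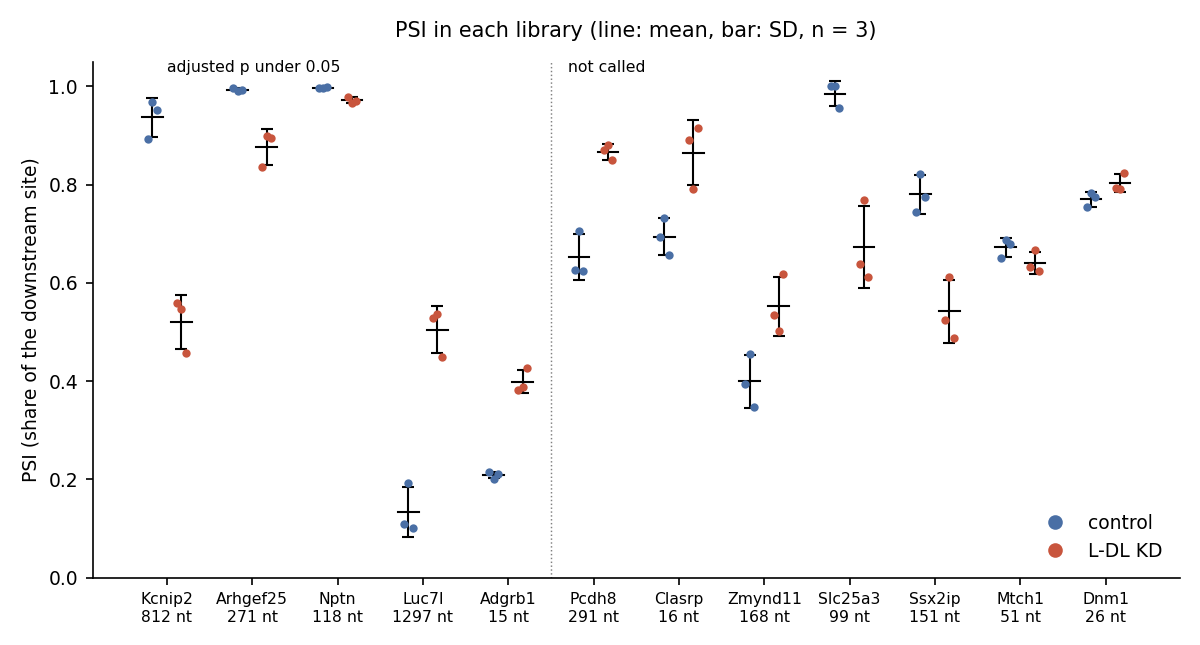
PSI (y) in each of 3 control (blue) and 3 L-DL KD (red) libraries for 12 named pairs, with the mean (line) and SD (bar); the 5 pairs left of the dotted line had an adjusted p under 0.05. In Kcnip2, Arhgef25, Nptn, Luc7l, Adgrb1, Pcdh8, Clasrp, Zmynd11, Slc25a3 and Ssx2ip the groups do not overlap, in Dnm1 they lie apart by little, and in Mtch1 they overlap.

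Other pairs named for a higher PSI did not pass edgeR's adjusted test, though Pcdh8 passed DESeq2 and limma (adjusted p = 0.0288 and 0.00117) and Clasrp and Zmynd11 passed limma (adjusted p = 0.0215 and 0.00724). Pcdh8, a protocadherin, has sites 291 nt apart in its first exon, both in protein-coding transcripts, and the extension keeps the frame without a stop. Its PSI was 0.627, 0.706 and 0.625 in the controls and 0.870, 0.880 and 0.849 in the L-DL KD libraries (log2 change 1.79, SE 0.35, adjusted p = 0.0595, edgeR). The gene was higher as well, with a log2 change of 0.73 (adjusted p = 0.00260, edgeR), and its long form had 158, 178 and 150 counts in the controls and 308, 381 and 282 in the others. Uncorrected for effective lengths, its PSI change was 0.14 in place of 0.21. Clasrp, which encodes an SR-like protein that binds CLK kinases, had 0.693, 0.732 and 0.658 against 0.890, 0.791 and 0.915 at a 16 nt pair whose short form is annotated in an NMD transcript (adjusted p = 0.197, edgeR). Zmynd11, a reader of histone H3 methylation, had mean PSI 0.400 ± 0.054 against 0.552 ± 0.059 (SD, n = 3, 168 nt, adjusted p = 0.231, edgeR). Auts2, a developmental regulator of neurons, had 0.107 ± 0.013 against 0.271 ± 0.048 at a 21 nt pair (adjusted p = 0.223, edgeR).

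Pairs with a lower PSI that did not pass edgeR's adjusted test were led by Letm2, a relative of a mitochondrial ion transporter, whose PSI was 0.920, 0.875 and 0.750 against 0.524, 0.438 and 0.290. Its sites lie in a first exon, in the 5′UTR, and it had only 26.2 counts per library (adjusted p = 0.204, edgeR). Slc25a3, the mitochondrial phosphate carrier, had 1, 1 and 0.956 against 0.639, 0.768 and 0.612 at a 99 nt pair whose long form is an NMD transcript, and its short form had 0, 0 and 2 counts in the controls and 15, 10 and 18 in the others (adjusted p = 0.0688, edgeR). Ssx2ip, an adaptor of cell junctions and centrosomes, also has its pair in the 5′UTR of a first exon, with 0.780 ± 0.039 against 0.542 ± 0.063 (SD, n = 3, adjusted p = 0.200, edgeR). Aldh6a1, an enzyme of valine breakdown, and Ptpa, an activator of protein phosphatase 2A, both held an exon, and had 0.955 ± 0.021 against 0.717 ± 0.048 and 0.960 ± 0.063 against 0.745 ± 0.043 (adjusted p = 0.0837 and 0.106, edgeR). Uncorrected for effective lengths, the change was −0.14 in Aldh6a1 and −0.13 in Ptpa, in place of −0.24 and −0.22. It was −0.22 in Slc25a3 and −0.17 in Ssx2ip, in place of −0.31 and −0.24. Slc25a3 passed DESeq2 and limma (adjusted p = 0.0307 and 0.000686), and Ssx2ip, Aldh6a1 and Ptpa passed limma (adjusted p = 0.0364, 0.0128 and 0.000293).

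None of the pairs with most counts that used both sites passed edgeR's adjusted test or DESeq2's, and limma called Rpl13a and Srsf5 among them (adjusted p = 7.63e-05 and 0.0387). Dnm1, the neuronal dynamin of synaptic vesicle endocytosis, had 0.770 ± 0.015 against 0.803 ± 0.018 (SD, n = 3) at a 26 nt pair. The mitochondrial protein gene Mtch1 had 0.672 ± 0.020 against 0.641 ± 0.023 at 51 nt, and the long noncoding RNA Meg3 had 0.196 ± 0.016 against 0.239 ± 0.013 at 44 nt.

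Rpl13a, a ribosomal protein gene, had an exon inside its 158 nt extension and had PSI 0.107 ± 0.0025 against 0.0678 ± 0.0023 (SD, n = 3), which did not pass edgeR (adjusted p = 0.164), and a difference of −0.067 in place of −0.040 uncorrected for effective lengths. Ptgds, prostaglandin D synthase, had 0.786 ± 0.024 against 0.758 ± 0.036 at 33 nt. Enpp2, which encodes autotaxin and is abundant in choroid plexus, had 0.787 ± 0.011 against 0.822 ± 0.043 at 12 nt, although its long-form counts ranged from 539 to 3267 in the controls and from 246 to 3812 in the others. Its PSI stayed within 0.775 to 0.858 over this range, and the choroid plexus markers varied widely among the libraries within each group.

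Of the 85 pairs at 4 nt, 49 were tested and none was called at an adjusted p of 0.05 by edgeR, while 4 (8.16%) were at an unadjusted p under 0.05, against 10.6% of all tested pairs. DESeq2 called 0 of them and limma 1, Srsf5. In Clu, the clusterin gene, the downstream site had 6, 12 and 14 counts in the controls and 12, 14 and 6 in the others, beside 3362 to 4791 counts of the upstream site, which gave a mean PSI of 0.00289 and 0.00231. Abhd12, a lipase gene, had mean PSI 0.00249 and 0.00222, so both genes used almost only the upstream site. Sumo2, a ubiquitin-like modifier, and Ttyh1, a membrane protein of glia, used the downstream site, with 0.997 and 1 and with 0.976 and 0.978. Srsf5, an SR splicing factor, used both: PSI was 0.856, 0.854 and 0.868 in the controls and 0.754, 0.833 and 0.809 in the L-DL KD libraries, without overlap (log2 change −0.62, SE 0.25, adjusted p = 0.334, edgeR).

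Mean PSI over all tested pairs, 1 value per library, was 0.5004 ± 0.00064 in the controls and 0.497 ± 0.0022 in the L-DL KD libraries (SD, n = 3). The difference of −0.0033 had p = 0.1 in a two-sided exact permutation test, the smallest p that 3 against 3 can give. It was −0.0021 without L-DL KD replicate 1 and −0.0017 (exact p = 0.4) without effective lengths. By class the difference was −0.0024 (exact p = 0.1) for pairs that keep the frame, −0.0041 (exact p = 0.2) for those that shift it and −0.010 (exact p = 0.2) for 4 nt pairs. Without control replicate 2 the frame-keeping value was −0.0013, and without L-DL KD replicate 1 the frame-shifting value was −0.0015. The 4 nt value came mostly from L-DL KD replicate 1, at 0.354 against 0.377 and 0.375 in the other two, and it was −0.0032 without that library. With a minimum of 10 counts per library the 4 nt value changed sign, to 0.0030. Larger differences were seen in first exons, with 0.477 ± 0.0049 against 0.459 ± 0.011 (−0.018, 87 pairs), and in 5′UTR extensions, with 0.505 ± 0.00024 against 0.488 ± 0.012 (−0.017, 107 pairs), both at exact p = 0.1. The first-exon value was −0.012 without L-DL KD replicate 3. Pairs 13 to 50 nt apart moved the other way, by 0.0045 (exact p = 0.1). In the 197 pairs whose long form is an NMD transcript, that form went from 0.149 to 0.138 (exact p = 0.1). Over these classes and transcript types 17 comparisons were made, 9 of them at the smallest p, which adjusts to 0.189 by Benjamini-Hochberg.

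**Figure D5:**
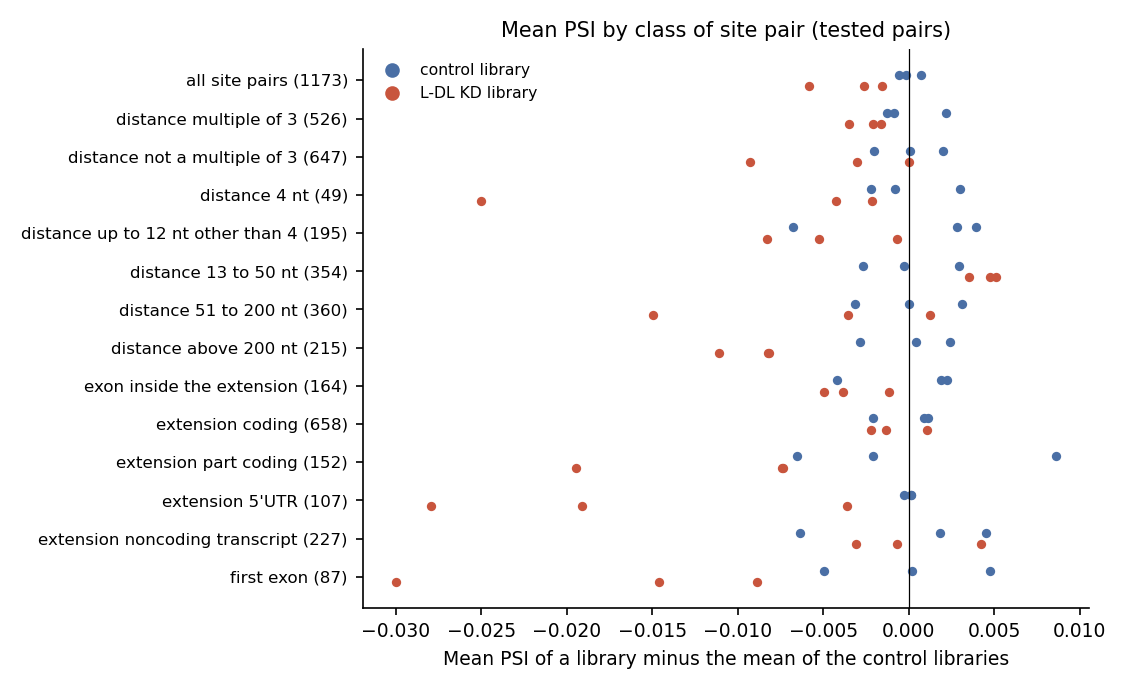
Mean PSI over the tested pairs of a class in each library, minus the mean of the control libraries (x), for 14 overlapping classes with their number of pairs (y); blue points are control and red points L-DL KD libraries. The red points lie left of the blue ones in first exons and 5′UTR extensions, by 0.018 and 0.017 on average, and right of them at 13 to 50 nt.

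The amounts of the host genes were read separately from the gene counts. Of 1000 host genes of tested pairs that entered the gene test, 333 (33.3%) had an adjusted p under 0.05 by edgeR, 145 higher and 188 lower, where 30.5% of all genes were called, 15.6% higher and 15% lower; without 1 of the control libraries 214 to 218 were called. Among the hosts of pairs at p under 0.05, 44 of 118 (37.3%) were called, 18 higher and 26 lower. The called or nearly called pairs lay both in genes whose level moved, as in Adgrb1, Nptn and Pcdh8, and in genes whose level did not pass, as in Luc7l and Kcnip2.

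Genes of 5′ splice site recognition were listed as a group of 32. Of these, 10 (31.2%) had an adjusted p under 0.05 by edgeR, 9 higher and 1 lower, near the share of all genes, and the median log2 change of the list was 0.08, against 0.01 over all genes. Only 4, 4, 5 and 6 genes were called without control replicates 1, 2 and 3 and without L-DL KD replicate 2, all of them higher. Within U1 snRNP, Snrnp70 (the 70K protein, 393 ± 22.3 against 479 ± 39.0 CPM, SD, n = 3) and Snrpc (the C protein, 25.3 ± 1.36 against 38.4 ± 1.79 CPM) rose, and Snrpa (the A protein) had 52.6 ± 3.69 against 48.6 ± 2.07 CPM and did not pass. The Sm protein gene Snrpd3 rose from 53.6 ± 2.60 to 67.0 ± 7.08 CPM. The U5 genes Prpf8 and Snrnp200 rose by log2 changes of 0.23 and 0.27, and Eftud2, the U5 GTPase, fell by 0.21. The regulators Hnrnpf (log2 0.44), Srsf2 (0.40) and Rbm24 (0.80) rose as well. Tia1, Tial1, Luc7l2, Luc7l3, Srsf1 and Hnrnpa1 did not pass the test.

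Some of these factors have alternative 5′ splice sites of their own. Besides Luc7l, none of their tested pairs had an adjusted p under 0.05 by edgeR, DESeq2 or limma, and all had an unadjusted p above 0.05. Tia1, which promotes use of weak 5′ splice sites, used both sites of a 133 nt pair that gains a stop, with PSI 0.347, 0.423 and 0.411 in the controls and 0.403, 0.466 and 0.356 in the L-DL KD libraries. Prpf40b had 0.179 ± 0.044 against 0.127 ± 0.042 (SD, n = 3) at 12 nt and Prpf39 0.684 ± 0.12 against 0.720 ± 0.16 at a pair with an inner exon. Snrnp70 and Hnrnph1 used nearly 1 site only, with mean PSI 0.0048 and 0.0062 at the 5 nt pair of Snrnp70 and 0.988 and 0.982 in Hnrnph1.

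From a list of synaptic, adhesion, cytoskeletal and hnRNP D family genes, tested pairs were found in Git2, Cask, Agrn, Dlg4 and Clasp1, and none had an unadjusted p under 0.05 by edgeR or an adjusted p under 0.05 by DESeq2 or limma. Dlg4, which encodes PSD-95, had mean PSI 0.034 ± 0.010 against 0.039 ± 0.019 (SD, n = 3) at 425 counts per library. Agrn, the agrin gene, had 0.537 ± 0.089 against 0.501 ± 0.085, and the pairs of both Dlg4 and Agrn held an exon. Git2 and Cask, with 39.3 and 20.2 counts per library, had standard deviations of 0.066 to 0.16, and differences within that spread were not detectable at this depth.

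By symbol, 32 tested pairs lay in genes of RNA processing, of which 6 (18.8%) had p under 0.05, 3 rising and 3 falling, where 10.6% of all tested pairs did. They were in Luc7l, Srsf5, Dhx30, Hnrnph3, Hnrnpr and Prpf38b. Hnrnph3, which encodes an hnRNP H family protein, had 0.872, 0.869 and 0.885 in the controls and 0.704, 0.858 and 0.654 in the L-DL KD libraries at a 45 nt pair. Hnrnpr (5 nt) had 0.043 ± 0.020 against 0.0999 ± 0.021 (SD, n = 3). Apart from Luc7l, none of these passed edgeR's or DESeq2's adjusted test (edgeR, adjusted p = 0.255 to 0.373), and limma called Srsf5.

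Of 33 tested pairs in synapse and channel genes 4 (12.1%) had p under 0.05, in Kcnip2, Cacna1c, Cacna1g and Stxbp2. Cacna1g, a T-type calcium channel, had PSI 0.042, 0.201 and 0.306 against 0.435, 0.476 and 0.426 at a 21 nt pair that adds 7 codons. Cacna1c, an L-type calcium channel, had 0.019 ± 0.022 against 0.125 ± 0.048 (SD, n = 3) at 174 nt. Of 25 pairs in cytoskeleton genes 2 (8%) had p under 0.05, in Arhgef25 and Ank3, whose 36 nt pair had 0.859 ± 0.084 against 0.972 ± 0.027. The pairs of Cacna1c, Cacna1g, Stxbp2 and Ank3 had 39.0 to 74.3 counts per library. None of them passed the adjusted test of edgeR, DESeq2 or limma (edgeR, adjusted p = 0.246 to 0.369). The medians of the PSI difference were −0.0011 for RNA processing, 0.0061 for synapse and channel genes and −0.012 for cytoskeleton genes, against −0.00058 over all tested pairs.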

How the data were processed

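RNA of 3 hippocampus libraries per group was sequenced after poly(A) enrichment. The authors deposited raw read counts per gene and the rMATS junction counts of the long and short form of each event, with the effective lengths of both forms; Bowtie 1.1.2, HISAT2 2.1.0 and HTSeq 0.6.1 are named in the submitters' processing notes, and the build is GRCm38. The table's p-values, FDR and PSI differences are the authors' own comparison and were not used. The labels do not tie each library to its own mouse, so p-values measure the spread between these libraries, which may be technical. The splicing table names neither group nor replicate in its columns: its first group was read as L-DL KD, which fits the gene counts (Spearman correlation 0.891 between group ratios of junction and gene counts over 8660 genes), and its libraries were never paired.

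PSI was computed from the counts and effective lengths. Junction counts of all event types were tested together with edgeR's quasi-likelihood test (version 4.0.16, R 4.3.3) on 12 columns, 1 for each form and library, with a term for each library, for events with means of at least 20 counts per library and 1 of each form, and p-values were adjusted by Benjamini-Hochberg over 18829 events. The gene table was tested by the same method after TMM scaling, keeping genes that reached 10 counts in 3 or more libraries. Alternatives were DESeq2 (1.42.0), limma (3.58.1, pseudocount 0.5), other filters and scalings, and leaving out each library. On simulated events of all types, edgeR found 104 of 195 changed events with 3 wrong calls. The planted logit change was 1.5 and the spread between libraries was assumed, so these counts are not measured for the A5SS events. Site letters, frames and inner exons were read from GENCODE vM21 transcripts. A pair was given 1 event, the one with most counts. Site pairs named are the adjusted calls, the 6 top risers and 6 top fallers in PSI at p under 0.01 with groups apart, the 8 pairs with most counts and control PSI of 0.1 to 0.9, the 5 pairs at 4 nt with most counts, and pairs in genes of a list of synaptic, adhesion, cytoskeletal and hnRNP D family genes and of the factor list. The members and lists were chosen with earlier results of these data known. Some named pairs and genes are not reported here.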

Additional observations from a re-analysis of the deposited data

How the results depend on the processing

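The count of 5 adjusted calls was 4 to 7 with other count minimums, TMM scaling, 1 event per pair or DESeq2, 11 when A5SS events were fitted alone, 32 with limma, 3 without pairs that hold an exon (chosen after seeing the data) and 0 to 3 with a library left out, where fewer samples were tested. With control replicate 3 left out it was 0, with 6 events at an unadjusted p under 0.001, and with control replicate 1 left out it was 1 (Kcnip2). The 9 events at p under 0.001 became 16 when fitted alone, 25 with limma, 5 without pairs that hold an exon and 5 to 8 with a library left out. The causes for limma and the separate fit were not tested. TMM scaling moved the median log2 change of all events from −0.06 to −0.15, and the rising share of A5SS events at p under 0.05 from 40% to 31.2%. The mean PSI difference of 4 nt pairs turned from −0.010 to 0.0030 at a minimum of 10 counts, and the mean differences over all pairs (−0.0042 to −0.0017) and by frame kept their sign under every setting tried for them. Those for first exons, 5′UTRs, 13 to 50 nt, above 200 nt and long NMD forms, for which only libraries were left out (chosen after seeing the data), also kept it. Without effective lengths the PSI change of 10 of 39 named pairs moved by more than the spread between replicates.

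No paired analysis was possible because the splicing table carries no replicate numbers. For gene counts, same-numbered samples did not deviate together (correlations 0.05, 0.13 and −0.11), so the numbers do not pair them. With a replicate block 281 of the host genes and 7 factor genes were called, against 333 and 10. Leaving out a library gave 214 to 416 host genes and 4 to 12 factor genes, with 214, 218 and 218 host genes without control replicates 1, 2 and 3 and 4, 4 and 5 factor genes, and 6 factor genes without L-DL KD replicate 2.

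Of the 312 refits of named pairs 13 changed sign, none of a called pair. With a library left out the log2 change ran from −0.68 to 1.35 in Abhd12 (0.28 with limma), −0.52 to 0.048 in Agrn, −0.75 to 1.30 in Cask, −0.25 to 0.57 in Dlg4, −0.27 to 0.83 in Prpf39, −0.12 to 0.77 in the 1300 nt pair of Snrnp70, −0.091 to 0.23 in the 133 nt pair of Tia1 and −0.29 to 0.37 in Ttyh1, all of which did not pass in the full data. Depth limits the pairs under 50 counts per library, and the inner exons limit what the long-form counts say about site choice.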
